A study of Mus musculus with 15 samples.

Results

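The 10 genes of the methionine cycle described here were chosen by symbol and make up 10 of the 37620 genes in the deposited tables. Mat1a (ENSMUSG00000037798), Mat2a (ENSMUSG00000053907) and Mat2b (ENSMUSG00000042032) serve the synthesis of S-adenosylmethionine. Ahcy (ENSMUSG00000027597) serves the hydrolysis of S-adenosylhomocysteine, and its relatives Ahcyl1 (ENSMUSG00000027893) and Ahcyl2 (ENSMUSG00000029772) are listed beside it. Mtr (ENSMUSG00000021311), Mtrr (ENSMUSG00000034617), Bhmt (ENSMUSG00000074768) and Bhmt2 (ENSMUSG00000042118) serve remethylation to methionine. RNA was sequenced from lung metastases of B16-F10.1, a mouse melanoma line, in male C57BL/6J mice. All mice were 8 weeks old when 100000 cells were injected into the tail vein, carried the tumours for 21 days on no stated experimental diet, and were then fed 1 of 4 diets for 2 weeks. The diets were methionine adequate (3 libraries), methionine deficient at 0% (3 libraries), methionine restricted at 25% (3 libraries) and methionine supplemented at 300% (6 libraries), the last known only from the sample labels. The labels do not say whether each library came from a different mouse, so the tests below measure the spread between these samples, which may be technical.

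Methionine adenosyltransferases join methionine and ATP into S-adenosylmethionine, the methyl donor of most methylation reactions. Each methyl transfer leaves S-adenosylhomocysteine, which adenosylhomocysteinase splits into adenosine and homocysteine. Homocysteine is methylated back to methionine either by methionine synthase, which takes its methyl group from folate and needs cobalamin, or by the betaine-dependent enzymes, which are known for liver and kidney. Mat1a is the liver form of the adenosyltransferase, and Mat2a is the form of most other tissues and of dividing cells. Mat2a RNA is known to be spliced and stabilised according to the cell's S-adenosylmethionine, through the RNA methyltransferase Mettl16.

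The libraries held between 13107649 and 29994249 expected counts each. All 12 melanocyte pigment genes checked were above 0 in every library, and Tyr, the enzyme that starts melanin synthesis, lay between 361.6 and 815.2 CPM (the count relative to the library total, on the TMM scale used throughout). The libraries also held other tissue in unequal amounts. Sftpc, the surfactant gene of alveolar type 2 cells, ran from 0.186 CPM in supplemented library 5 to 2159 CPM in deficient library 3. Supplemented library 5 also held Acta1, the actin of skeletal muscle, at 845.5 CPM, against at most 3.10 CPM in any other library. The summed level of 12 genes of dividing cells was 554.8 to 971.0 CPM in adequate and 557.3 to 947.5 CPM in deficient libraries. It was 1032 to 1140 CPM in restricted and 878.9 to 1096 CPM in supplemented ones. Mki67, 1 of the 12, was at 61.4, 94.7 and 198.3 CPM in adequate libraries and at 157.7 to 240.0 CPM elsewhere. Mki67 and the sum differed in order, since adequate library 1, the lowest in Mki67, had a sum of 860.8 CPM. Deficient library 3, with Mki67 at 157.7 CPM, had a sum of 557.3 CPM. Stromal markers in the adequate libraries lay below those of deficient and restricted libraries and overlapped those of supplemented ones. The summed level of 12 fibroblast genes was 379.8 to 598.7 CPM in adequate libraries, against 912.3 to 1289 in deficient, 693.5 to 1156 in restricted and 547.6 to 1470 CPM in supplemented ones, and that of 12 endothelial genes was 363.1 to 589.5 CPM against 643.5 to 2900, 624.4 to 789.0 and 467.5 to 948.8 CPM. All 12 genes of each of these 3 lists were above 0 in every library. The part of these mixtures in any difference from the adequate diet below was not tested. Adequate library 1 had the lowest TMM factor, 0.69, so that its CPM values were raised most by the scaling. In bulk samples such as these, fewer cells of a type and less RNA per cell cannot be told apart.

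For 2 of the genes, Ahcy and Bhmt, reads can be divided with a near-identical copy, and Ahcy is shown because its copy took the larger number of reads. Mouse Gm4737 is annotated as protein coding and carries almost the coding sequence of Ahcy, so reads from one can be assigned to the other. In GENCODE M21, which is of a later build than the deposited counts and was used here for sequence alone, the coding sequences are 1296 bases each and differ at 4 positions, all at the third base of a codon. Counted from 1 at the A of the start codon, and with the base of Ahcy first, these are C459T, G474A, C1050T and C1068T. The 2 stretches of 60 bases that hold them are shown because reads over these bases are the ones that can tell the coding parts of the genes apart. Capitals mark the differing bases, positions 437 to 496 come first and positions 1028 to 1087 second.
Ahcy 437 to 496: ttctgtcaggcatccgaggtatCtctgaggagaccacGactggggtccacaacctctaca
Gm4737 437 to 496: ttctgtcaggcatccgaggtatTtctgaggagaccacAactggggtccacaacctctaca
Ahcy 1028 to 1087: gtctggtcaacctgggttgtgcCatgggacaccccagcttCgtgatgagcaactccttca
Gm4737 1028 to 1087: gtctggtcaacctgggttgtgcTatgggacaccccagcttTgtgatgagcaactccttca
Between and outside these bases lie 3 stretches of 50 or more identical bases that cover 1261 bases of the coding sequence. The longest of them, 575 bases, lies between positions 474 and 1050, and the others lie before the first and after the last differing base. Over all its annotated transcripts, 68.7% of the 50-base words of Ahcy also occur in another gene on the same strand, 66% in Gm4737 and 30.2% in the processed pseudogene Gm9826. Bhmt shares 25.3% of its words, mostly with Gm5096, whose coding sequence is 99.7% identical to it. Mat2a shares 4.6% with the pseudogene Gm9523 and a further 9.64% with the opposite strand of Particl, and Bhmt2 shares 4.99%. Mat1a, Mat2b, Ahcyl1, Ahcyl2, Mtr and Mtrr share no such word with another gene on the same strand. The paralogs within the cycle are far more different, at 73.1% coding identity for Mat1a and Mat2a, 79.9% for Ahcyl1 and Ahcyl2 and 74.9% for Bhmt and Bhmt2.

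Compared per transcript length (deposited TPM), Ahcy and Mat2a were the most abundant messages of the cycle. Ahcy had the highest TPM of the 10 genes in 10 libraries, Mat2a in 4 and Ahcyl2 in 1, deficient library 3. The medians over the 15 libraries were 19.4 TPM for Ahcy, with a range of 11.1 to 64.9, and 16.7 TPM for Mat2a, with a range of 6.01 to 29.5. Ahcyl2 followed at a median of 10.1 TPM, Ahcyl1 at 7.88 TPM and Mat2b at 7.02 TPM. These neighbours in the order overlapped in range, from 3.42 to 22.1 TPM for Ahcyl2, 2.31 to 12.8 TPM for Ahcyl1 and 3.82 to 8.29 TPM for Mat2b. The methionine synthase pair was lower and the 2 genes were close to each other, with medians of 2.01 TPM for Mtrr and 1.85 TPM for Mtr. Mat1a (median 0.18 TPM), Bhmt2 (0.09 TPM) and Bhmt (listed at 0 in 10 of 15 libraries) were near the bottom of what the depth could measure. A total of 3 counts, the limit that a count of 0 allows, corresponds to 0.106 to 0.217 CPM depending on the library, for counting error only.

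**Figure D1:**
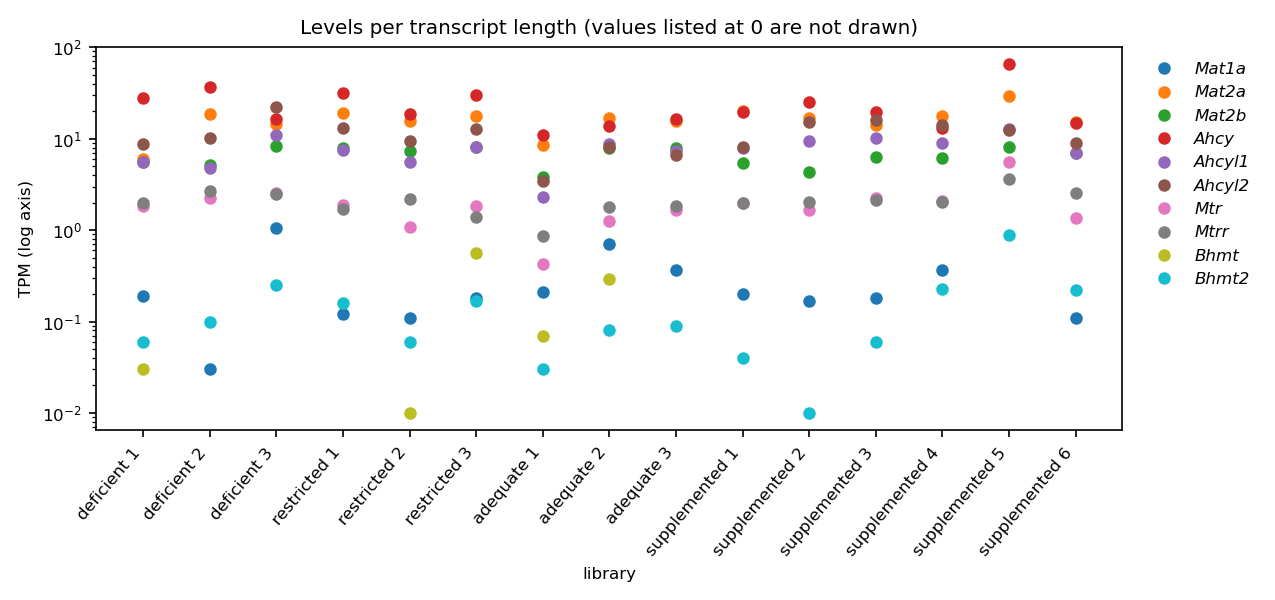
Deposited TPM (log axis) of the 10 genes in each of the 15 libraries, 1 point per gene and library, with values listed at 0 not drawn. Ahcy or Mat2a is the top point in 14 of the 15 libraries, and Mat1a, Bhmt and Bhmt2 lie at or below 1.05 TPM in all.

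The ratio of Mat2a to its regulatory partner Mat2b, taken within each library on the TPM scale, had a median of 2.23 over the 15 libraries and ranged from 1.08 in deficient library 1 to 3.96 in a supplemented one. In the adequate libraries it lay between 1.97 and 2.215, and in the restricted between 2.11 and 2.40. It lay between 1.08 and 3.59 in the deficient libraries and between 2.185 and 3.96 in the supplemented ones. The supplemented range thus began inside the range of the other diets. Mat2a exceeded Mat1a 13.9-fold to 625.3-fold in the 14 libraries where Mat1a had reads. Mtrr and Mtr stayed within a ratio of 0.655 to 2.02. The TPM ratios carry the authors' estimates of transcript length, which moved between libraries from 1555 to 2543 bases for Ahcy and from 1296 to 1752 bases for Mat2b, and the comparisons between diets below therefore use CPM of the gene counts.

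None of the 10 genes passed an adjusted p of 0.05 in any of the 6 pairwise diet comparisons, in the test for any difference among the 4 diets or in the trend over the rank of dietary methionine (edgeR quasi-likelihood test, Benjamini-Hochberg adjustment over 16001 genes). In these edgeR tests 0.00625% of all genes tested passed for deficient against adequate and 0.00625% for any difference among diets, and 0% passed in each of the other comparisons. An unadjusted p under 0.05 was reached by 3 of the 10 genes for deficient against adequate (Mat2b, Ahcyl2 and Mtr), where 15.1% of all genes reached it. It was reached by Mat2b and Ahcyl2 for supplemented against adequate (9.77% of all genes) and by Mat2b for any diet (9.47%). None did for restricted against supplemented (2.18%), restricted against adequate (9.17%), deficient against restricted (7.44%), deficient against supplemented (5.45%) or the rank trend (3.47%). DESeq2 and limma-voom called 0 of the 10 genes in each of these comparisons too. DESeq2 did so while it called 588 genes in all for deficient against adequate. All 10 genes passed the filter on low counts, but Bhmt did so through adequate libraries 1 and 2 and restricted library 3 alone, so it had to differ from groups near 0 and is left out of these counts of unadjusted p. The median log2 fold change of the 10 genes was 0.02 for deficient against adequate, beside 0.04 for all genes tested, and 0.07 against 0.03 for supplemented against adequate. The 3 comparisons against the adequate diet share its 3 libraries.

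**Figure D2:**
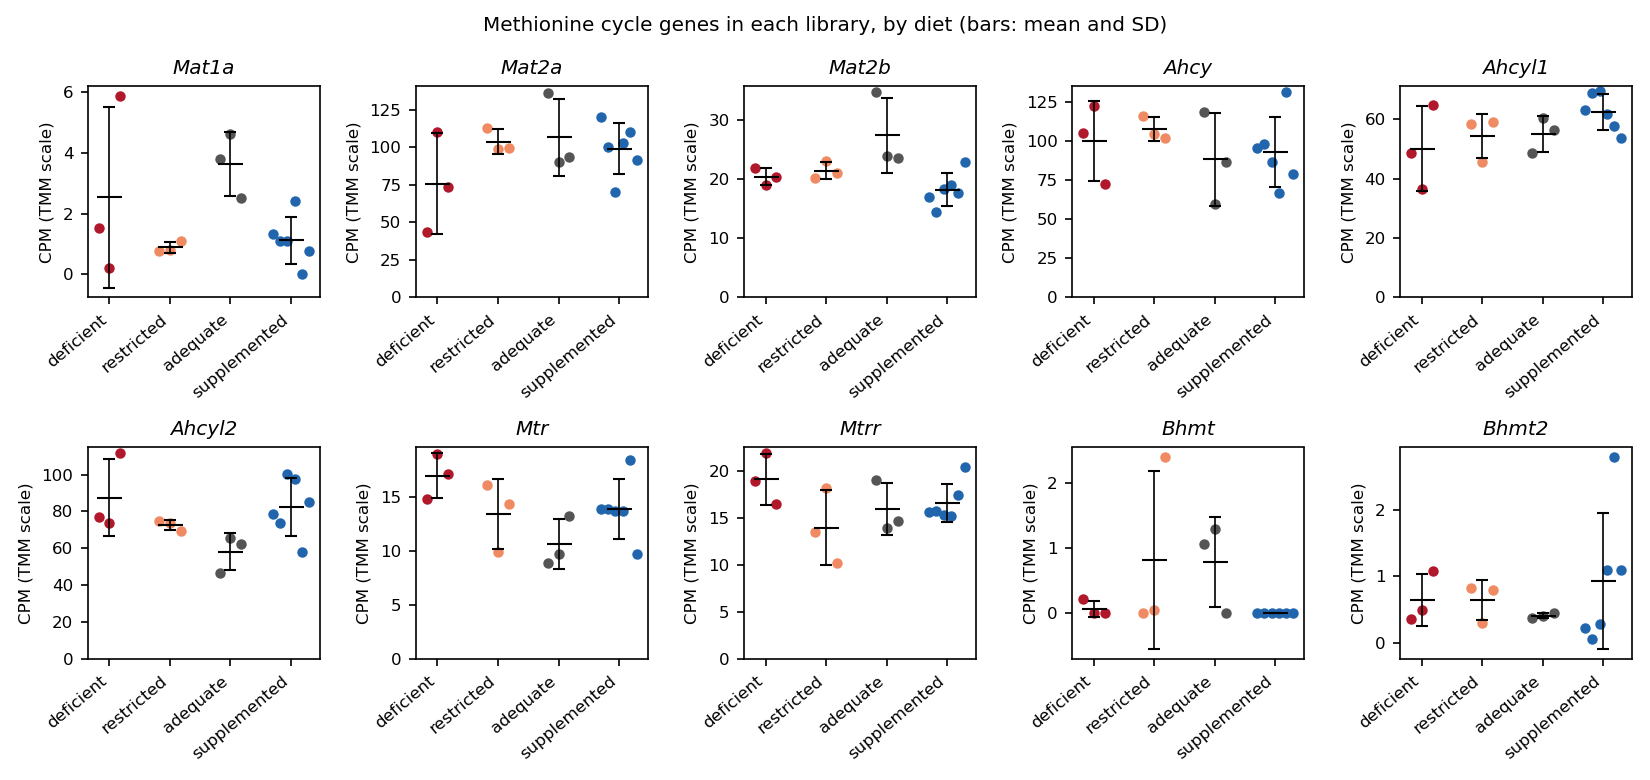
CPM on the TMM scale of each of the 10 genes by diet, 1 point per library, with bars for the mean and SD (3 libraries for deficient, restricted and adequate, 6 for supplemented). Mat2b is the only gene whose adequate points all lie above every other point, by 23.55 against 22.95 CPM, a gap that closes under other scalings.

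Mat2a, the catalytic subunit of S-adenosylmethionine synthesis outside the liver, measured 43.7, 110.4 and 73.6 CPM in the deficient libraries, against 136.2, 90.0 and 93.6 CPM in the adequate ones. It measured 113.2, 99.0 and 99.3 CPM in the restricted libraries and from 70.2 to 120.1 CPM in the supplemented ones. Deficient library 1 was the lowest of all 15, while deficient library 2 lay above 2 of the adequate libraries, so the groups overlapped. The mean was 75.9 ± 33.4 CPM (SD, n = 3) in deficient and 106.6 ± 25.7 (SD, n = 3) in adequate libraries. The log2 fold change of -0.49 (SE 0.276) had a 95% interval of -1.08 to 0.10 (edgeR adjusted p = 0.411). That value rested on single libraries, since it was -0.87 without deficient library 2 and -0.25 without deficient library 1. For restricted against adequate the log2 fold change was -0.04 (95% interval -0.62 to 0.55), and for supplemented against adequate it was -0.11 (95% interval -0.61 to 0.40).

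Mat2b, the regulatory subunit that binds the Mat2a enzyme, measured 34.65, 23.8 and 23.55 CPM in the adequate libraries. It measured 21.8, 19.01 and 20.3 CPM in the deficient libraries, 20.2, 22.95 and 21.0 CPM in the restricted ones, and from 14.5 to 22.8 CPM in the supplemented ones. All 3 adequate libraries therefore lay above all 12 others, which held for 1.04% of all genes tested. The gap was narrow, with the lowest adequate library at 23.55 and the highest other at 22.95 CPM, and it depended on the scaling. It remained under RLE factors (23.07 against 22.96) and was gone under upper-quartile factors (22.82 against 23.23) and in unscaled CPM (23.40 against 23.76), a check chosen after the data were seen. Supplemented against adequate gave the smallest p of Mat2b, with a log2 fold change of -0.59 (SE 0.169, 95% interval -0.95 to -0.23, edgeR adjusted p = 0.322). The value was -0.40 without adequate library 1, which was the highest of all and had the lowest scaling factor. Against the adequate diet the log2 fold change was -0.42 (SE 0.1995, adjusted p = 0.329 by edgeR) in deficient and -0.36 (SE 0.1995, adjusted p = 0.640 by edgeR) in restricted libraries, and these values were -0.23 and -0.17 without adequate library 1. Among the 4 diets the test of any difference gave an edgeR adjusted p of 0.469.

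Mat1a, the liver form, was rare, with 534 expected counts over all 15 libraries. The adequate libraries held 60, 92 and 55 counts (3.78, 4.61 and 2.50 CPM), the restricted ones 14, 16 and 18 counts (0.774, 0.807 and 1.11 CPM), and the deficient ones 43, 4 and 87 counts (1.52, 0.201 and 5.88 CPM). The supplemented libraries ran from 0 counts in library 5 to 66 counts in library 4, or 0 to 2.42 CPM. Every adequate library was thus above every restricted one, a pattern seen in that direction for 8.27% of all genes, and above every supplemented one (2.24%), though the second separation, 2.50 against 2.42 CPM, was lost under upper-quartile factors and in unscaled CPM. The deficient libraries spanned nearly the whole range. Log2 fold changes were -2.01 (SE 1.09, adjusted p = 0.628) for restricted and -1.68 (SE 0.874, adjusted p = 0.554) for supplemented against adequate by edgeR.

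Of 12 hepatocyte markers tested, 0 passed an adjusted p of 0.05 in any diet comparison by edgeR. Some passed the filter on low counts through the adequate libraries alone. Serpina1a, for example, had 47, 31 and 18 counts in adequate libraries and none elsewhere. Such markers had to differ from groups near 0, so no unadjusted p is counted for this list. Alb, which encodes albumin, was at 22.9, 12.99 and 3.96 CPM in the adequate libraries. It was at 0 in 9 of the other 12 libraries, the rest holding at most 1.55 CPM. Of the 18 hepatocyte markers, 16 to 18 were above 0 in the adequate libraries, 6 to 9 in the deficient, 5 to 13 in restricted libraries and 3 to 10 in supplemented libraries. Their summed level was 26.15 to 112.3 CPM in adequate, 29.04 to 36.9 in deficient, 21.7 to 65.0 in restricted and 5.89 to 37.1 CPM in supplemented libraries. The marker Cyp2e1 was not confined to adequate libraries, with 45.55, 9.28 and 12.7 CPM in them and 60.4 CPM in restricted library 2. It made up the smaller part of the summed level in each adequate library, such as 45.55 of 112.3 CPM in library 1. In every other library it made up the larger part, such as 60.4 of 65.0 CPM in restricted library 2. The summed levels outside the adequate diet were therefore mainly those of Cyp2e1, and a sum without it was not computed. The part of these genes' tissue in the Mat1a values was not tested. Deficient library 3, with the highest Mat1a level of all, had Alb at 0 and the highest lung epithelial level.

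Ahcy, the enzyme that hydrolyses S-adenosylhomocysteine, measured 105.1, 122.4 and 72.3 CPM in the deficient, 116.2, 104.7 and 101.9 in the restricted, and 118.9, 59.5 and 86.6 CPM in the adequate libraries. The supplemented libraries ran from 67.0 to 131.6 CPM. No diet stood apart, and the means were 99.9 ± 25.4 CPM (SD, n = 3) for deficient, 107.6 ± 7.54 (SD, n = 3) for restricted, 88.4 ± 29.75 (SD, n = 3) for adequate and 93.0 ± 22.1 CPM (SD, n = 6) for supplemented. The largest of its 3 differences from adequate was for restricted, a log2 fold change of 0.28 (SE 0.268, 95% interval -0.29 to 0.85, edgeR adjusted p = 0.814). It was 0.0671 without adequate library 2 and 0.54 without adequate library 1.

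The copy Gm4737 received 143 to 839 counts a library, or 7.96% to 29.2% of the sum of both genes. Its share was 22.3% to 26.7% in the adequate libraries, above both the deficient share of 11.9% to 15.3% and the restricted share of 7.96% to 18.2%, and inside the 13.03% to 29.2% of the supplemented ones. With both genes summed, an alternative chosen after the data were seen, the means came closer together. The sum was 115.4 ± 27.4 CPM (SD, n = 3) in deficient, 123.2 ± 10.85 (SD, n = 3) in restricted, 115.9 ± 35.95 (SD, n = 3) in adequate and 119.3 ± 34.5 CPM (SD, n = 6) in supplemented libraries. For deficient against adequate, the log2 fold change of Ahcy was 0.18 alone and -0.01 summed. The part that read assignment between the genes has in their shares was not tested.

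**Figure D3:**
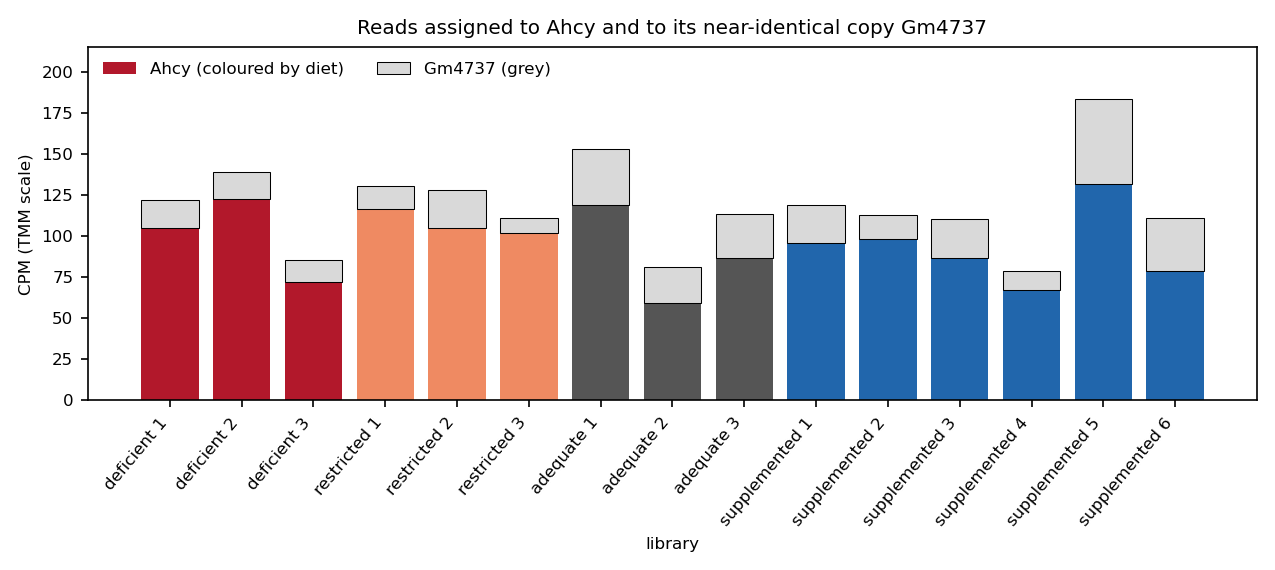
Stacked CPM on the TMM scale assigned to Ahcy (coloured by diet) and to its copy Gm4737 (grey) in each of the 15 libraries. The grey part is 22.3% to 26.7% of the bar in the adequate libraries and 11.9% to 15.3% in the deficient ones.

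Ahcyl1 and Ahcyl2 encode relatives of adenosylhomocysteinase that are known as binding partners of inositol trisphosphate receptors and ion transporters. Ahcyl1 had the smallest spread of the 10 genes, with a coefficient of variation of 15.8% over the 15 libraries, against a median of 19.5% for the 500 genes nearest to it in level. Its means were 50.05 ± 14.3 CPM (SD, n = 3) in deficient, 54.3 ± 7.44 (SD, n = 3) in restricted, 55.05 ± 5.95 (SD, n = 3) in adequate and 62.4 ± 6.18 CPM (SD, n = 6) in supplemented libraries. Ordered by dietary methionine the slope was 0.10 log2 per rank (95% interval -0.00465 to 0.21, edgeR adjusted p = 1.00).

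Ahcyl2 measured 46.6, 65.5 and 62.4 CPM in the adequate libraries. All deficient libraries (77.2, 73.9 and 111.4 CPM) and all restricted libraries (74.7, 73.75 and 69.4 CPM) lay above them, as did 5 of the 6 supplemented libraries, whose exception was library 5 at 58.0 CPM. Deficient libraries lay wholly above adequate ones for 7.91% of all genes, and restricted ones for 8.37%. Log2 fold changes from adequate were 0.59 (SE 0.215, 95% interval 0.13 to 1.05, edgeR adjusted p = 0.230) in deficient, 0.32 (SE 0.215, adjusted p = 0.707) in restricted and 0.50 (SE 0.190, adjusted p = 0.442) in supplemented libraries. Deficient library 3 was the highest of all 15 and also the richest in lung epithelium. Without it the deficient value was 0.38, and without it, adequate library 1 and supplemented library 5 together it was 0.23.

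Mtr, the cobalamin-dependent methionine synthase, measured 14.8, 19.01 and 17.15 CPM in the deficient libraries and 8.88, 9.78 and 13.3 CPM in the adequate ones. These did not overlap, and deficient libraries lay wholly above adequate ones for 7.91% of all genes tested. Mtr measured 16.1, 9.89 and 14.4 CPM in the restricted libraries. In the supplemented ones it measured from 9.71 to 18.5 CPM, with 4 of 6 between 13.72 and 13.96. The means were 17.0 ± 2.10 CPM (SD, n = 3) in deficient and 10.65 ± 2.32 (SD, n = 3) in adequate libraries. This gave the largest log2 fold change from adequate among the 7 well-counted genes, 0.67 (SE 0.260, 95% interval 0.12 to 1.23, edgeR adjusted p = 0.250). It stayed between 0.55 and 0.86 when any 1 library was left out. Restricted and supplemented libraries gave 0.34 (SE 0.260) and 0.38 (SE 0.228), with edgeR adjusted p of 0.757 and 0.604. Separation of these deficient and adequate libraries, like those of Ahcyl2, held under all 4 scalings compared.

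Mtrr, the reductase that keeps the cobalamin of methionine synthase active, measured 19, 21.9 and 16.5 CPM in the deficient libraries, 13.5, 18.2 and 10.2 CPM in the restricted, 19.1, 13.99 and 14.7 CPM in the adequate, and 15.2 to 20.4 CPM in the supplemented ones. All diets overlapped. The log2 fold change was 0.27 (SE 0.230, edgeR adjusted p = 0.597) for deficient against adequate and 0.45 (SE 0.230, edgeR adjusted p = 0.696) for deficient against restricted.

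Bhmt, the betaine-dependent remethylase of liver and kidney, was at 0 counts in 10 of 15 libraries. The adequate libraries held 17, 26 and 0 counts, the deficient 6, 0 and 0, the restricted 0, 1 and 39, and all 6 supplemented libraries 0. Its copy Gm5096 held 6 and 9 counts in adequate libraries 1 and 2, 6 counts in supplemented library 3 and 0 in the other 12. With both genes summed, a check chosen after the data were seen, the adequate libraries held 58 counts (1.00 CPM over the group), the deficient 6 (0.0951 CPM), the restricted 40 (0.739 CPM) and the supplemented 6 (0.0516 CPM). Of the 40 restricted counts 39 came from library 3, so that group's value was that of 1 library. The level of Bhmt is given here as a description, with no test. Adequate libraries 1 and 2, which held Bhmt reads, also had the highest Alb levels. Restricted library 3 had Alb at 0.247 CPM, and 3 to 6 of the 10 kidney tubule markers were above 0 in every library. The part of either tissue in the Bhmt reads was not tested.

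Bhmt2, which uses S-methylmethionine as methyl donor, had 1 to 45 counts in every library. It measured 0.378, 0.401 and 0.455 CPM in the adequate libraries and between 0.0556 and 2.79 CPM in the supplemented ones, with library 5 the highest. Its values in the deficient and restricted libraries, 0.303 to 1.08 CPM, fell within the supplemented range. The interval of the log2 fold change for supplemented against adequate, -0.93 to 3.24, held both 0 and a rise of over 3 log2 units.

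**Figure D4:**
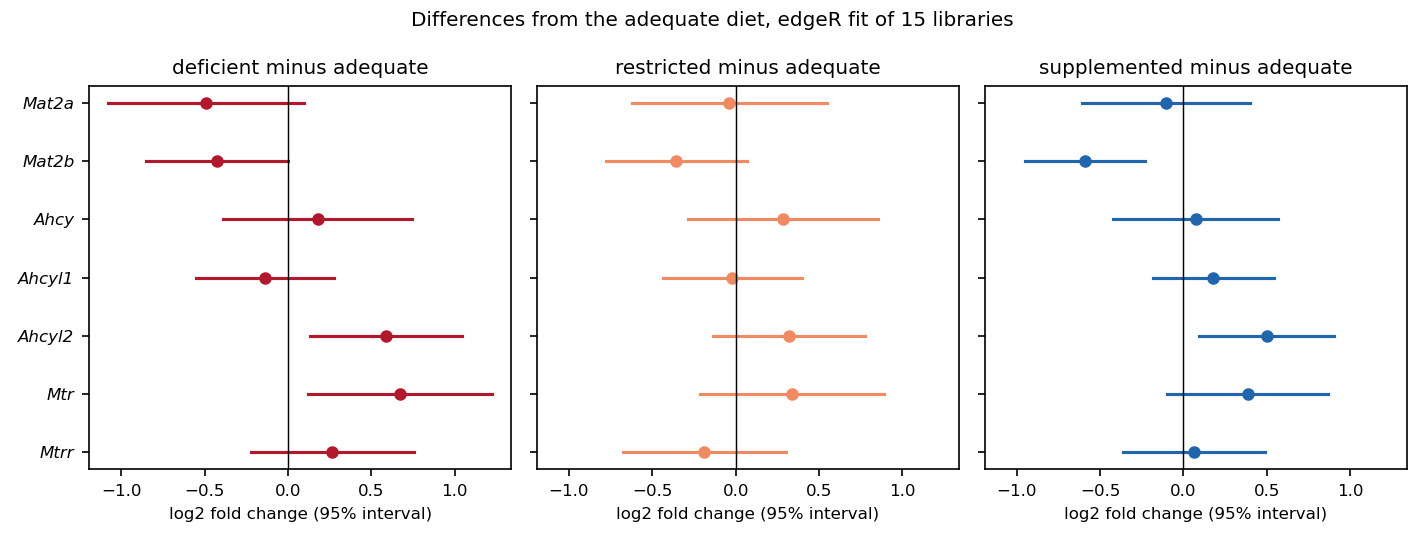
Log2 fold changes from the adequate diet with 95% intervals for the 7 well-counted genes, from the edgeR fit of all 15 libraries, 1 panel per diet. Intervals lie to the right of 0 for Mtr (deficient) and Ahcyl2 (deficient and supplemented) and to the left of 0 for Mat2b (deficient, just, and supplemented), and no gene passed the adjusted threshold in any panel.

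Because libraries differed in lung tissue, each gene was also fitted to the library's lung epithelial level, the mean log2 CPM of 31 alveolar and airway genes, beside the diet means. That level ran from -0.43 in supplemented library 5 and 0.63 in restricted library 2 to 7.34 in deficient library 3, and was 4.01, 4.03 and 2.57 in the adequate libraries. None of the 10 genes passed the adjusted threshold for this slope, where 10.2% of all genes tested did, while 3 of 10 were below an unadjusted p of 0.05, beside 26.1% of all genes. They were Mat1a, with a slope of 0.60 log2 per unit (SE 0.189, edgeR adjusted p = 0.0539), Ahcy at -0.11 (SE 0.0410, adjusted p = 0.0990) and Ahcyl2 at 0.09 (SE 0.0344, adjusted p = 0.116). Mat1a was called under RLE factors, with no filter on low counts, by DESeq2 and by limma-voom, and when supplemented library 1 or 6 or restricted library 1 or 2 was left out. All 3 were called without adequate library 1. In the other direction, without adequate library 1, supplemented library 5 and deficient library 3 together, the slopes were nearer 0, at 0.22 for Mat1a, -0.0613 for Ahcy and 0.0309 for Ahcyl2, and 0 of the 3 were called. The slopes of Mat2a, Mat2b, Ahcyl1, Mtr, Mtrr and Bhmt2 lay between -0.10 and 0.07.

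**Figure D5:**
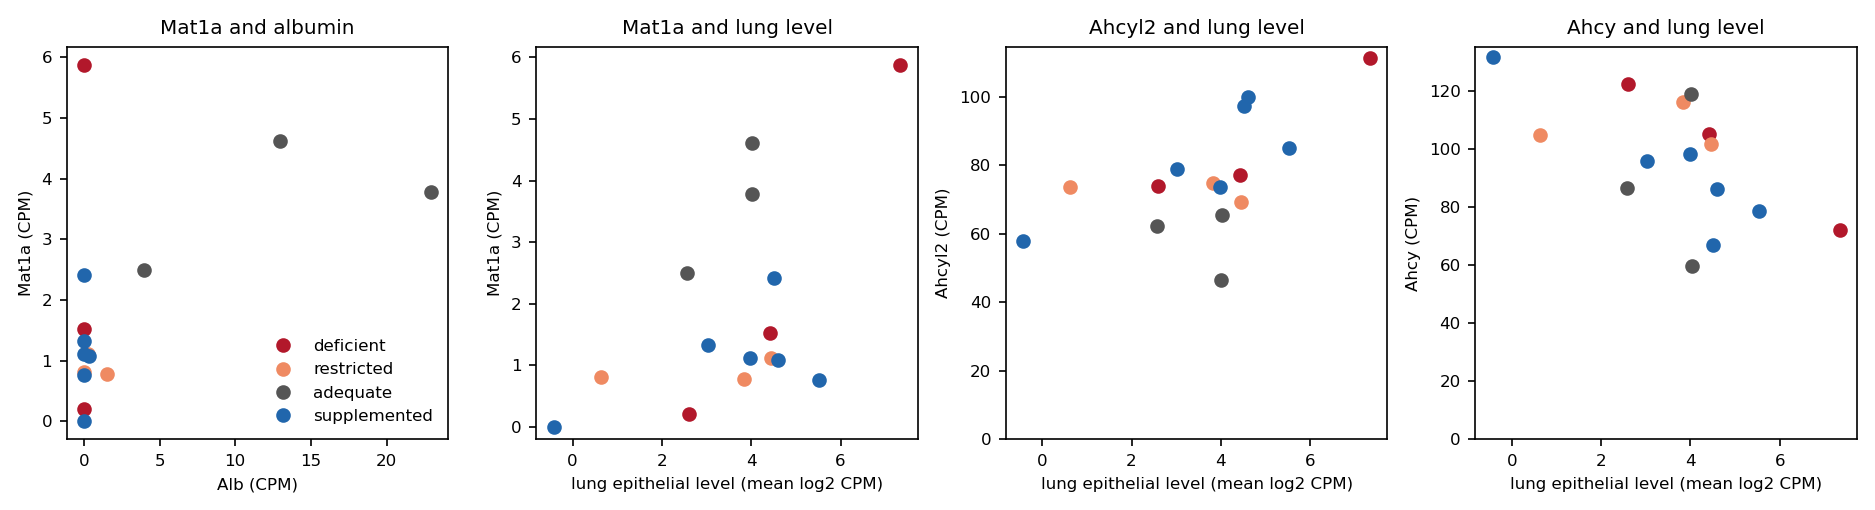
Mat1a against Alb (first panel), and Mat1a, Ahcyl2 and Ahcy against the lung epithelial level (other panels), 1 point per library, coloured by diet, all in CPM on the TMM scale except the lung level in mean log2 CPM. In the lung-level panels, deficient library 3 lies at the far right with the highest Mat1a and Ahcyl2. Supplemented library 5 lies at their far left with no Mat1a read and the highest Ahcy.

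Relations between members across the 15 libraries were mixed in sign. Of the 21 pairs among the 7 well-counted genes, the strongest relations of log2 CPM were negative, with Pearson r of -0.65 for Mat2b and Mtr, -0.60 for Ahcyl1 and Mtrr and -0.52 for Ahcy and Ahcyl2. The 2 subunits Mat2a and Mat2b had r = 0.09, and the partners Mtr and Mtrr r = -0.08. These values describe 15 libraries that share their tissue mixture and depth with both genes. The genes most alike to Ahcy among 11865 genes compared were Cdc45, a DNA replication factor, with r = 0.94, Npm3 (r = 0.93) and Ddost (r = 0.93). Those most alike to Ahcyl2 were Zbtb20 (r = 0.96), Mast4 (r = 0.95) and Camta2 (r = 0.94). Mat2a was closest to Dis3, an exosome nuclease, at r = 0.81, which fell to 0.52 without the 2 libraries farthest from the median of Mat2a. Mat2b was closest to Igbp1 at r = 0.89, or 0.61 without 2 such libraries, Mtr to Thada at 0.81, Mtrr to C330007P06Rik at 0.84 and Ahcyl1 to Parva at 0.83. Mat1a was closest to Paxx (r = 0.90), Bhmt2 to Ctps2 (r = 0.94) and Bhmt to Car12 (r = 0.77), all 3 from low counts.

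The genes that feed or drain the cycle were counted in 10 lists, and in each of them 0 genes passed an adjusted p of 0.05 in any comparison of diets (edgeR). In the list on Mat2a control, 6 of 6 genes were tested. Mettl16, the methyltransferase that reads S-adenosylmethionine through Mat2a RNA, was the only gene of the 6 below an unadjusted p of 0.05 between diets (edgeR). Mettl16 was so for deficient, restricted and supplemented against adequate and for any diet. Of all genes tested, 15.1%, 9.17%, 9.77% and 9.47% were below it in these 4 tests. Mettl16 was lower in adequate libraries, at 14.6 ± 3.82 CPM (SD, n = 3), than the mean of deficient (23.1 ± 3.01; SD, n = 3), restricted (24.7 ± 3.69; SD, n = 3) and supplemented libraries (20.5 ± 3.34; SD, n = 6). Its log2 fold changes from adequate were 0.66, 0.75 and 0.49, with edgeR adjusted p of 0.204, 0.362 and 0.460. The adequate libraries held Mettl16 at 19.03, 12.04 and 12.87 CPM. Library 1 of them lay above supplemented libraries 1, 2 and 3 (18.82, 17.57 and 18.27 CPM). Of 19 folate pathway genes tested, 3 were below an unadjusted p of 0.05 for deficient against adequate (15.1% of all genes tested), 2 for restricted (9.17%) and 2 for supplemented (9.77%), shares near those of all genes. Ggh, which shortens folate polyglutamates, was at 24.2 ± 9.44 CPM (SD, n = 3) in adequate libraries, with 34.65, 21.6 and 16.3 CPM in libraries 1 to 3. Its means were 14.2, 15.4 and 15.9 CPM in deficient, restricted and supplemented ones, with edgeR adjusted p of 0.246, 0.516 and 0.481 against adequate. Deficient library 2 (19.6 CPM) and supplemented library 5 (20.1 CPM) lay above adequate library 3.

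Of all genes tested, 15.1% were below an unadjusted p of 0.05 for deficient, 9.17% for restricted and 9.77% for supplemented against adequate (edgeR). Beside these shares, the other lists gave counts of 0 to 2 genes below it in each of these comparisons. These lists were adenosine clearance (4 genes tested), cobalamin handling (9), choline and betaine supply (6), methionine import (9), small-molecule methyltransferases (11), transsulfuration (8), salvage and polyamines (12) and amino acid stress (14). Among methionine importers, Slc38a2, a sodium-coupled neutral amino acid transporter, was at 130.6 ± 11.5 CPM (SD, n = 3) in deficient and 187.3 ± 9.97 (SD, n = 3) in restricted libraries. The log2 fold change between them was -0.52 (edgeR adjusted p = 0.649). In adequate libraries Slc38a2 was at 102.6, 183.6 and 160.2 CPM, and in supplemented ones at 131.4 to 218 CPM. Deficient against adequate gave a log2 fold change of -0.19 (edgeR adjusted p = 0.70). The slope on the lung level was the only test that called genes of these lists. It called 12 of the 98 list entries tested, near the 10.2% of all genes that it called. Of these 9 had a negative slope, among them the homocysteine-to-cysteine enzyme Cth (-0.27 log2 per unit, edgeR adjusted p = 0.0451), the asparagine synthetase Asns (-0.22, adjusted p = 0.0345) and the serine synthesis enzyme Phgdh (-0.15, adjusted p = 0.0477). The other 3 had a positive slope, Inmt (1.42 log2 per unit), a methyltransferase of amines, Cdo1 (0.89), the cysteine dioxygenase, and the choline transporter Slc44a2 (0.19). Inmt measured 191.8 ± 293.3 CPM (SD, n = 3) in deficient libraries, with 529.5 CPM in deficient library 3.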

How the data were processed

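Total RNA depleted of ribosomal RNA was made into strand-marking libraries, as the labels' protocols state. Bowtie2 2.2.9, RSEM 1.30, edgeR and the build NCBIM37 are named in the submitters' processing notes; for the annotation release and the strand setting of counting, the sources used here give nothing. The authors deposited expected counts and TPM per gene for each library, and the lengths RSEM used. Of 37620 gene IDs, 32897 had a symbol. Expected counts were rounded, and 16001 genes passed filterByExpr. The test was edgeR 4.0.16 (R 4.3.3) quasi-likelihood, TMM scaling, 1 mean per diet over 15 libraries, 11 residual degrees of freedom, common biological variation 0.461, Benjamini-Hochberg threshold 0.05. The self-test used simulated counts. DESeq2 1.42.0, limma 3.58.1 (voom), other scalings, no filter, the lung level as a covariate, only the 2 diets compared and libraries left out were alternatives. TPM values were compared between genes, and TPM ratios of Mat2a to Mat2b were also given by diet, with no test. Named genes were the 10 members, the 3 genes most correlated with each, the 2 genes of lowest any-diet p per pathway list, every list gene called, and 5 tissue markers. From these the text gives a selection. Of 247 entries in 22 lists, 245 matched and 219 were tested. The members and lists were chosen with earlier results of these data known.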

Additional observations from a re-analysis of the deposited data

How the results depend on the processing

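No paired analysis was possible because the labels give no replicate numbers; the numbers used here follow accession order. Over 1348 values of the 10 genes with 1 library left out, 1303 kept their direction and side of the threshold, 38 changed sign and 7 newly passed it; over 680 values under other settings 642 kept both, 34 changed sign and 4 newly passed. The cause was not tested for any of these changes. No member was called in a diet comparison under any setting run. For the lung slope 1 member was called under RLE factors, 1 with no filter, 1 by DESeq2 and 1 by limma-voom, and 0 to 3 with 1 library left out (3 without adequate library 1). The number of all genes called moved as follows. For any diet it was 8 with no filter, 270 by DESeq2, 0 by limma-voom, 3 without adequate 1, supplemented 5 and deficient 3 together, 2 with the lung level as covariate, and 0 to 2 with 1 library left out. For deficient against adequate it was 0 with upper-quartile factors, 0 with no filter, 588 by DESeq2, 5 without the 3 libraries, 0 with the lung covariate, 0 with only those 2 diets, and 0 to 4 with 1 library left out. For deficient against restricted it was 9 by DESeq2. For restricted against adequate it was 131 by DESeq2, 66 without the 3 libraries, 12 with the lung covariate, and 0 to 5 with 1 library left out. For supplemented against adequate it was 137 by DESeq2, 3 by limma-voom, 2 without the 3 libraries and 1 with the lung covariate. For the lung slope it was 2492 by DESeq2, 303 without the 3 libraries, and 535 (without deficient 3) to 2651 (without adequate 1) with 1 library left out.

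The sign changes below are log2 fold changes or slopes, none called. Those of Bhmt are listed as a record only, since most libraries held no Bhmt count. With Gm4737 summed, Ahcy was -0.00607 for deficient against adequate, -0.0481 for deficient against supplemented and 0.00595 for the rank trend. With the 3 libraries left out together, values were 0.0957 for Ahcy, deficient against restricted; -0.20 for Ahcyl2, deficient against supplemented, and 0.0826 for its rank trend; -0.0115 for Bhmt2, deficient against adequate, 0.19 for restricted against supplemented and 0.44 for its lung slope; -0.0236 for Mat1a, deficient against restricted, -0.63 for deficient against supplemented and 0.29 for its rank trend; 0.16 for Mat2a, restricted against adequate, and 0.0712 for supplemented against adequate; 0.0360 for Mtr, restricted against supplemented, and 0.0156 for its lung slope. With the lung covariate, values were 0.0516 for Ahcy, deficient against restricted; 0.00846 for Ahcyl1, restricted against adequate; -0.0255 for Ahcyl2, deficient against supplemented, and 0.00889 for its rank trend; -0.00224 for Bhmt, restricted against adequate; 0.19 for Bhmt2, deficient against restricted; -0.58 for Mat1a, deficient against restricted, -0.0883 for deficient against supplemented, 0.50 for restricted against supplemented and 0.0427 for its rank trend. By limma-voom, values were -0.84 for Bhmt, restricted against adequate; 0.0369 for Bhmt2, deficient against supplemented, 0.16 for restricted against supplemented and -0.0385 for its rank trend; and 0.24 for Mat1a, restricted against supplemented. For Bhmt2, deficient against restricted, it was 0.0416 with RLE factors, 0.0401 by DESeq2 and 0.000194 with only those 2 diets.

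With 1 library left out, ranges that crossed 0 were as follows. Deficient against adequate ranged from -0.0412 to 0.45 for Ahcy, -0.37 to 0.0417 for Ahcyl1 and -2.05 to 0.0139 for Mat1a. Deficient against restricted ranged from -0.28 to 0.0804 for Ahcy, -0.35 to 0.0614 for Ahcyl1, -6.95 to 1.38 for Bhmt, -0.59 to 0.28 for Bhmt2 and -0.0420 to 2.02 for Mat1a. Deficient against supplemented ranged from -0.0681 to 0.29 for Ahcy, -0.12 to 0.19 for Ahcyl2, -1.10 to 0.20 for Bhmt2 and -0.37 to 1.70 for Mat1a. Restricted against adequate ranged from -0.12 to 0.0649 for Ahcyl1, -4.63 to 0.62 for Bhmt and -0.14 to 0.16 for Mat2a. Restricted against supplemented ranged from -0.77 to 0.21 for Bhmt2, -0.59 to 0.0591 for Mat1a, -0.0138 to 0.13 for Mat2a and -0.20 to 0.14 for Mtr. Supplemented against adequate ranged from -0.15 to 0.33 for Ahcy, -0.21 to 0.0955 for Mat2a and -0.0217 to 0.20 for Mtrr. The rank trend ranged from -0.0471 to 0.0504 for Ahcyl2, -0.0940 to 0.32 for Bhmt2, -0.38 to 0.18 for Mat1a and -0.0566 to 0.0153 for Mtrr. The lung slope ranged from -0.0330 to 1.49 for Bhmt, -0.20 to 0.38 for Bhmt2 and -0.0674 to 0.00361 for Mat2a. The Bhmt ranges above are listed as a record only. Values of Bhmt in groups at 0 counts depend on the prior count and are no bound. Of ranges that kept their sign, Ahcyl2 went from 0.17 to 0.41 and Mtr from 0.19 to 0.53 for restricted against adequate, and Mtrr from 0.16 to 0.41 for deficient against adequate. Mat1a, Bhmt and Bhmt2 had 0 to 92 counts a library and so the largest counting error of the 10 genes; its part in their spread was not tested. RLE and upper-quartile factors moved the median of all genes by at most 0.03, while unscaled CPM moved it by 0.13, 0.14 and 0.20 for deficient, restricted and supplemented against adequate.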
